A study of Arabidopsis thaliana with 6 samples.

Results

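The WRKY genes encode a plant family of transcription factors, and 54 of them were followed here by their locus identifiers among the 24267 genes of the count table. RNA had been sequenced from wild-type Columbia (Col) seedlings of Arabidopsis thaliana, 4 days old at transfer, that then stayed 72 h on Murashige and Skoog medium with sucrose. Plates held ethanol alone (control), 1 nM of the auxin indole-3-acetic acid (IAA) or 10 nM melatonin (MT), with 2 libraries in each group and ethanol as the solvent in all. Of the 54 members, 53 had a mean of at least 0.5 counts per 1e+06 counts of the library (CPM) over the 6 libraries and were tested. WRKY55 (AT2G40740), at 0.217 CPM, was left out of the tests, and the lowest members kept were WRKY74 (AT5G28650) at 0.560 and WRKY30 (AT5G24110) at 0.663 CPM.

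WRKY proteins bind DNA through a domain that carries the letters of their name and a zinc finger, and most target sites hold the W-box. Group I members have a pair of such domains, group II members (subgroups IIa to IIe) have a single domain, and group III members have a single domain with another type of finger. The family is best known from immunity: receptors at the cell surface activate MAP kinase cascades, which phosphorylate WRKY proteins or raise their transcripts, and WRKY proteins in turn switch defence genes on or off. Many WRKY promoters hold W-boxes themselves. Other members act in leaf senescence, phosphate nutrition, abiotic stress, seed development and trichomes.

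Libraries held 35953236 to 46076624 counts. The labels call the samples seedlings while the design text speaks of rosette leaves. Shoot markers such as RBCS1A (9179 to 12739 CPM) and root markers such as COBL9 (9.65 to 17.02 CPM), CASP1 (25.6 to 49.7 CPM) and SCR (44.2 to 47.5 CPM) were all present. Summed over 6 root markers the level was 111 to 137 CPM in the control, 131 to 139 with IAA and 106 to 107 with MT, and the 4 seed storage markers summed to at most 2.84 CPM. The 5 shoot markers summed to 26805 to 28332, 21264 to 22704 and 25267 to 27896 CPM in the same order, with 2 of 5 log2 fold changes positive under each compound. LHCB1.3 and LHCB3 rose with MT, and LHCB3 with IAA. The LHCB1.3 call was lost without control replicate 1 (adjusted p = 0.0714 in edgeR's test), and the IAA call of LHCB3 without any 1 of the 4 control and IAA libraries (up to 0.197). The other 3 did not pass, with -0.41 for IAA and -0.19 for MT in RBCS1A, -0.51 and -0.38 in RCA, and -0.48 and -0.26 in CA1, each without overlap with the control. Whether replicate libraries were grown apart is not stated in the labels, so every p-value reflects the spread among these libraries alone, which may be technical. In whole seedlings, fewer cells of a type and less RNA per cell cannot be told apart.

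Upstream sequences are shown first because they belong to the 4 members with the highest fold changes under MT, described below. Each is the 300 bases before the annotated gene start, read 5′ to 3′ in the direction of the gene from the RefSeq annotation of TAIR10.1. Positions are those of that reference. The count table gives no coordinates and its build is not given in the sources used here. Capitals mark the W-box core, searched as TTGACC and TTGACT on both strands, so that AGTCAA and GGTCAA are matches on the opposite strand.
WRKY33 (chr2:16107935-16108234, plus strand): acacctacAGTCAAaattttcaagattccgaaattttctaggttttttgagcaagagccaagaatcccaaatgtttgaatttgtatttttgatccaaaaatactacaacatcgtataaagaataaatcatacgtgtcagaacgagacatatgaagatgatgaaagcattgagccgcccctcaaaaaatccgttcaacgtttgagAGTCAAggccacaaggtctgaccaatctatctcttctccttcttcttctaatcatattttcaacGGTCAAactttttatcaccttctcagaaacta
WRKY53 (chr4:12393983-12394282, minus strand): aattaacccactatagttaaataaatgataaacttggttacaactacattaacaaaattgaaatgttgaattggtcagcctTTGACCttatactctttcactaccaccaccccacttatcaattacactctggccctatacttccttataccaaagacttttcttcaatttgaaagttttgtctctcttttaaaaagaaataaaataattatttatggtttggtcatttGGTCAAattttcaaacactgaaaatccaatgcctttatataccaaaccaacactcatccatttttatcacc
WRKY40 (chr1:30383261-30383560, plus strand): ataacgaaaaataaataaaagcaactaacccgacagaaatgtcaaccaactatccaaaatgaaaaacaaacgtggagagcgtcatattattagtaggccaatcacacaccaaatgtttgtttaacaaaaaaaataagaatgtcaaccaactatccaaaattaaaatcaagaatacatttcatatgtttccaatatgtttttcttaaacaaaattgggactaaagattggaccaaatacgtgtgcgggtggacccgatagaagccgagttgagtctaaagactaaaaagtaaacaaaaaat
WRKY46 (chr2:19044956-19045255, minus strand): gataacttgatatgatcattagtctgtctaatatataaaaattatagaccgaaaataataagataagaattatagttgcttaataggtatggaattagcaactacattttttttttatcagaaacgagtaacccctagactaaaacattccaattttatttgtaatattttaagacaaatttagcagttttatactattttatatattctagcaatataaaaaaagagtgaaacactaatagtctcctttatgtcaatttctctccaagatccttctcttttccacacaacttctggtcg

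WRKY33 had 3 matches and WRKY53 had 2, whereas WRKY40 and WRKY46 had 0 in this window. A last T of one match can be the first of another, and such matches were counted separately. Over the members followed here 21 of 54 upstream windows (38.9%) held at least 1 match, against 8855 of 27443 windows of all protein-coding genes of chromosomes 1 to 5 (32.3%). At least 2 matches stood in 9 member windows (16.7%) and in 7.91% of all windows. A match is a description of the letters and not a binding site, and a window without one says nothing about more distant sequence.

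**Figure D1:**
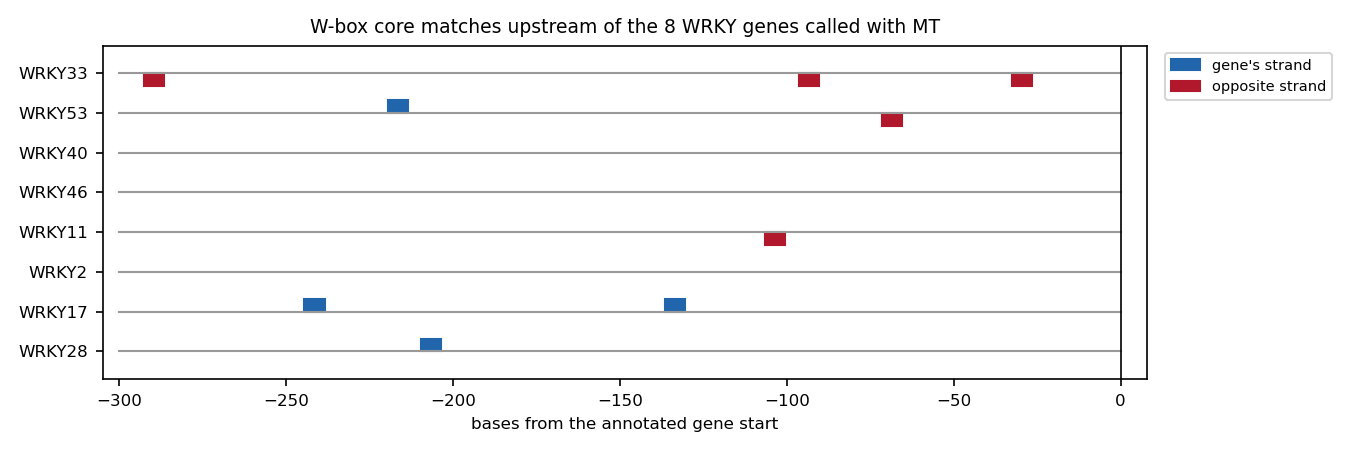
Position of W-box core matches (boxes 6 bases wide) in the 300 bases before the annotated gene start of the 8 WRKY genes called with MT; the x axis is the distance from the gene start in bases, boxes above a line lie on the gene's strand and boxes below it on the opposite strand. WRKY33 holds 3 matches, WRKY53 and WRKY17 hold 2 each, WRKY11 and WRKY28 hold 1 each, and WRKY40, WRKY46 and WRKY2 hold 0.

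Members differed widely in level. As reads per kb of exon per 1e+06 counts, with exon lengths from TAIR10.1, the control means ran from 0.228 for WRKY55 to 58.9 for WRKY18 (AT4G31800). WRKY18, a group IIa factor that tunes immune responses together with WRKY40 and WRKY60, ranked first in the control, followed by WRKY15 (AT2G23320) at 54.7. The control libraries stood at 61.4 and 56.4 for WRKY18 and at 54.4 and 55.04 for WRKY15, a gap smaller than the spread of WRKY18. WRKY33 held rank 13 in the control at 19.1, rank 3 with IAA at 37.7 and rank 1 with MT at 94.1. On the same scale WRKY40 went from rank 30 (4.89) to rank 8 (24.1) and WRKY53 from rank 42 (2.09) to rank 23 (10.8) with MT. These ranks are of group means, and the MT libraries of WRKY33 and WRKY40 lay well apart, as given below. The 54 members summed to 1109 to 1157 CPM in the control, 1151 to 1239 with IAA and 1198 to 1351 with MT. The rise of WRKY33 with MT, whose CPM are given below, was about as large as that of this sum.

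**Figure D2:**
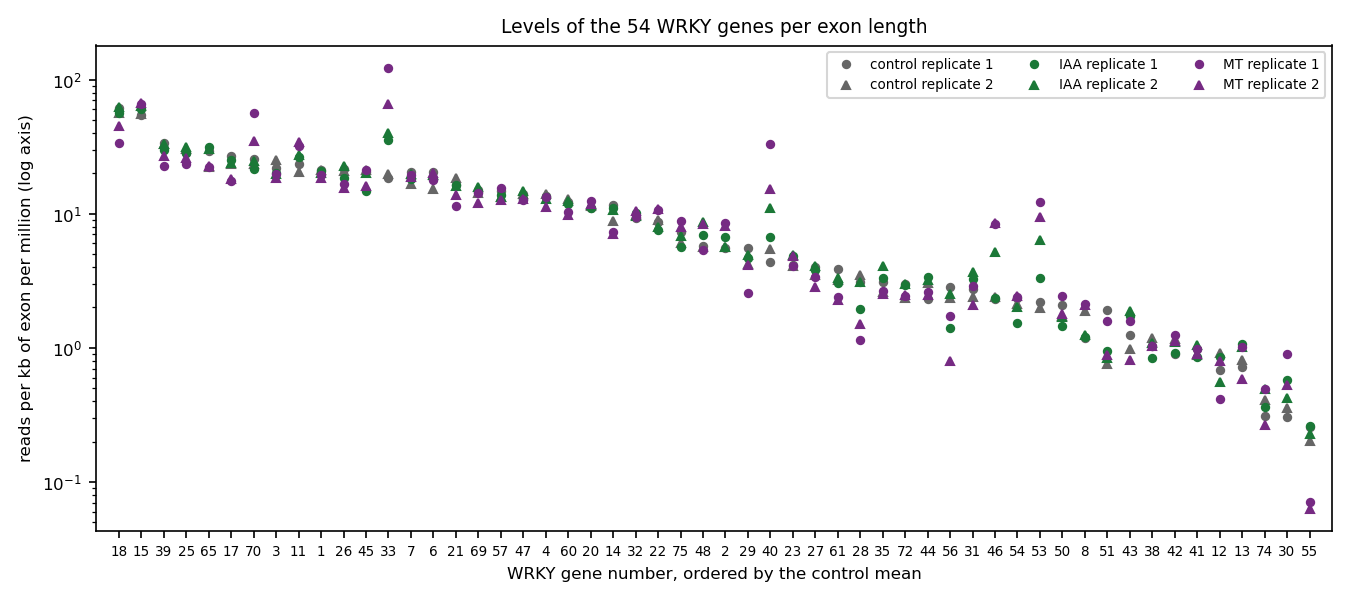
Reads per kb of exon per 1e+06 counts (log axis) of the 54 WRKY genes, ordered along the x axis by the control mean; each point is 1 library, coloured by group, circles for replicate 1 and triangles for replicate 2. WRKY33, WRKY40, WRKY46, WRKY53 and WRKY70 stand out with MT points above the control points.

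With melatonin WRKY33, WRKY53, WRKY40 and WRKY46 rose several-fold, WRKY11 and WRKY2 rose less, WRKY17 and WRKY28 fell, and most members did not pass the test. Of 53 tested members 6 rose and 2 fell, which is 15.1%, against 7.65% of all 21355 genes tested called in either direction (edgeR's quasi-likelihood test, adjusted p below 0.05). By direction the background was 3.99% higher and 3.65% lower. The median log2 fold change of the members was -0.05, beside 0.00 over all genes, so the rises were not shared by the tested members as a whole. Groups did not overlap for 32 of 53 members, beside 55.5% of all genes tested, and an unadjusted p under 0.05 was reached by 21 members (39.6%) beside 25.2% of all genes.

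WRKY33 (AT2G38470), a group I factor that MPK3 and MPK6 phosphorylate and that drives camalexin synthesis and resistance to necrotrophic fungi, had the smallest p. Its CPM were 37.4 and 40.04 in the control, 71.5 and 81.5 with IAA, and 249 and 132 with MT. All 3 groups were apart, and the MT libraries differed from each other by 1.88-fold, replicate 1 being the higher. The change from control to MT was 2.30 ± 0.28 (log2 fold change ± SE, 4.93-fold, adjusted p = 0.00738). This call held in each alternative tried, with log2 fold changes from 1.78 without MT replicate 1 to 2.70 without MT replicate 2. The WRKY33 model overlaps AT2G38480 on the other strand by 26 bases, and that gene had 5.66 to 7.74 CPM and -0.29 with MT (adjusted p = 0.31). The WRKY33 model also overlaps AT2G08965 by 272 bases on the other strand, a gene that is absent from the count table.

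WRKY53 (AT4G23810), a group III activator of leaf senescence, had 3.33 and 3.00 CPM in the control, 5.01 and 9.56 with IAA, and 18.4 and 14.3 with MT. The groups did not overlap, and the IAA libraries lay between the others and 1.91-fold apart. With MT it rose by 2.37 ± 0.32 (5.16-fold, adjusted p = 0.00961). Its model overlaps AT4G23800 by 341 bases on the other strand. That neighbour, at 48.6 to 69.9 CPM, had 0.24 with MT (adjusted p = 0.44).

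WRKY40 (AT1G80840), a group IIa repressor in immune and abscisic acid signalling, had 5.76 and 7.20 CPM in the control, 8.95 and 14.6 with IAA, and 43.6 and 20.3 with MT. The 3 groups did not overlap, but the MT libraries were 2.15-fold apart. The rise with MT was 2.30 ± 0.40 (4.92-fold, adjusted p = 0.021). AT1G80850, which overlaps it by 51 bases on the other strand, also rose (0.73, from 6.57 and 5.81 to 10.6 and 9.86 CPM, adjusted p = 0.04), and whether both share reads was not tested.

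WRKY46 (AT2G46400), a group III factor of basal resistance and of drought and brassinosteroid responses, had 3.13 and 3.21 CPM in the control, 3.201 and 7.04 with IAA, and 11.3 and 11.5 with MT. The MT libraries were close to each other and above all others, while 1 IAA library stood at the control level and the other at 2.2 times that. The rise with MT was 1.84 ± 0.35 (3.59-fold, adjusted p = 0.0267).

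**Figure D3:**
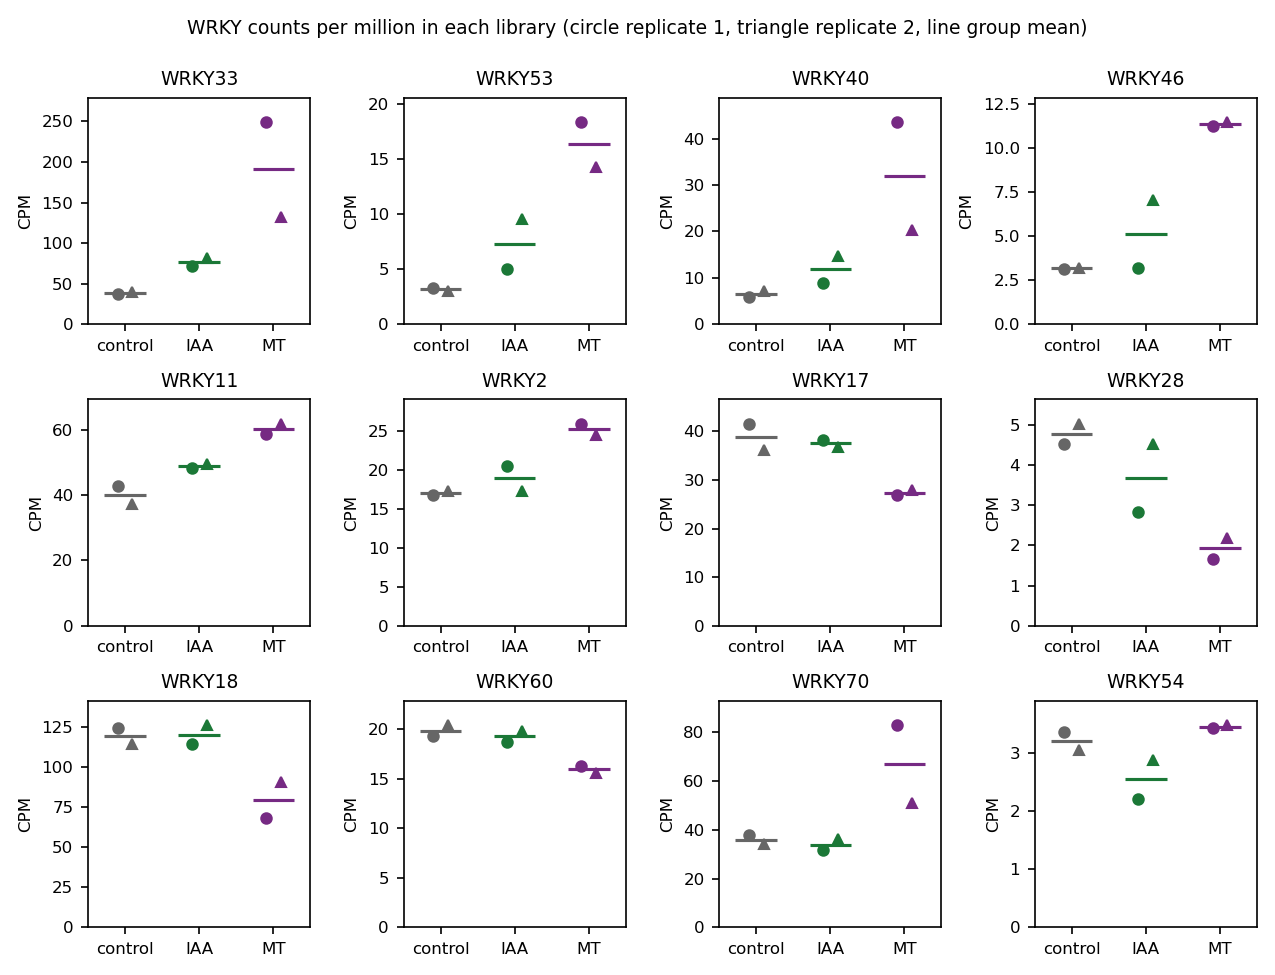
CPM of 12 WRKY genes in each library (y axis, linear from 0) by group (x axis); circles are replicate 1, triangles replicate 2 and lines group means (n = 2). WRKY33, WRKY53, WRKY40, WRKY46, WRKY11, WRKY2 and WRKY70 are highest in both MT libraries, and WRKY17, WRKY28, WRKY18 and WRKY60 lowest there.

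The other 2 rises were smaller. WRKY11 (AT4G31550), a group IId calmodulin-binding factor that restrains basal resistance, had 42.9 and 37.3 CPM in the control, 48.2 and 49.5 with IAA, and 58.5 and 61.9 with MT (0.59 ± 0.09, adjusted p = 0.0149). The 3 groups did not overlap. WRKY2 (AT5G56270), a group I factor of seed germination and early embryo patterning, had 16.7 and 17.2 CPM in the control, 20.5 and 17.3 with IAA and 25.9 and 24.5 with MT (0.57 ± 0.12, adjusted p = 0.0342). Its overlap with AT5G56280 is 43 bases on the other strand, and that gene had 0.13 with MT (adjusted p = 0.44).

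WRKY17 (AT2G24570), the closest relative of WRKY11 and known to act in the same direction on basal resistance, fell. It had 41.6 and 36.1 CPM in the control, 38.3 and 36.8 with IAA, and 26.96 and 27.9 with MT (-0.50 ± 0.10, adjusted p = 0.0275). The pair thus moved in opposite directions under MT, while the control libraries of both lay between 36.1 and 42.9 CPM. Their upstream windows are printed for that reason, in the same layout as above.
WRKY11 (chr4:15291935-15292234, minus strand): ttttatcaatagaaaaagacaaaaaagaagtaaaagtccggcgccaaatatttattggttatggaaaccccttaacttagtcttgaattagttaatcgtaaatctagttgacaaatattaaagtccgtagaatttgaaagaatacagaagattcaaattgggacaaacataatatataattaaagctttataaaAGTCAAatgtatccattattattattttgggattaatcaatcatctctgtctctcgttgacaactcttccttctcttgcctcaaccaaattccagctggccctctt
WRKY17 (chr2:10439470-10439769, minus strand): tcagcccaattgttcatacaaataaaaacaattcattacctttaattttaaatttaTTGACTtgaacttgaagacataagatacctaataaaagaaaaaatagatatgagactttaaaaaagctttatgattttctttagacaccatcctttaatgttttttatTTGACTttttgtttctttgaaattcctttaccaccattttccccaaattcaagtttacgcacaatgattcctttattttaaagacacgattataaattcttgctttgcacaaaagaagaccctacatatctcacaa

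WRKY11 held 1 match and WRKY17 held 2. WRKY28 (AT4G18170), a group IIc factor that can activate the salicylate synthesis gene ICS1, fell the most among the members called. It had 4.53 and 5.03 CPM in the control, 2.84 and 4.52 with IAA and 1.67 and 2.18 with MT (-1.31 ± 0.28, adjusted p = 0.0405). Of the 8 members called, 5 (62.5%) held at least 1 W-box match upstream, 3 of the 6 that rose and 2 of the 2 that fell. Of the 45 not called 15 did (33.3%), beside 32.3% of the windows of all protein-coding genes. Whether matches go with calls was not tested.

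Of the 8 calls, 7 were lost when some single library was left out. Without control replicate 1 only WRKY11 and WRKY33 of the 8 were called, and the 6 others had adjusted p from 0.0564 to 0.137. Without control replicate 2 WRKY17 and WRKY33 were called, and the others had 0.0621 to 0.138. Without MT replicate 1 WRKY2, WRKY17, WRKY28 and WRKY46 were lost (0.0809 to 0.157), and without MT replicate 2 the same 4 were lost (0.0649 to 0.0747), while WRKY18, WRKY21, WRKY39 and WRKY70 were gained (0.00716 to 0.0401). Leaving out either IAA library lost WRKY17 (0.0605 without replicate 1 and 0.0597 without replicate 2), and robust empirical Bayes lost WRKY40 (0.0696). WRKY17 was lost as well with only the MT and control libraries (-0.50, adjusted p = 0.0584 in edgeR's test). No sign changed in any of these. Calls over all genes also became fewer each time 1 library was left out, so such losses were not particular to the members. With 1 library left out the log2 fold change ran from 0.53 to 0.62 for WRKY2, from 1.83 to 1.86 for WRKY46 and from -1.51 to -1.13 for WRKY28. That of WRKY40 ran from 1.65 without MT replicate 1 to 2.76 without MT replicate 2. DESeq2 called 14 members, the 8 and WRKY14, WRKY15, WRKY18, WRKY21, WRKY39 and WRKY70, beside 14.2% of all genes.

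Another 5 members lay just outside the threshold with MT, at an adjusted p between 0.05 and 0.06. WRKY18 had 124 and 114 CPM in the control, 114 and 126 with IAA and 68.6 and 90.6 with MT (-0.58 ± 0.14, adjusted p = 0.0521). Its group IIa partner WRKY60 (AT2G25000) had 19.3 and 20.4, 18.7 and 19.8, and 16.3 and 15.6 CPM in the same order (-0.32 ± 0.10, adjusted p = 0.113). In both genes the MT libraries lay below all others, whereas their partner WRKY40 rose. WRKY70 (AT3G56400), a group III node between salicylate and jasmonate responses, had 37.9 and 34.2 CPM in the control, 31.7 and 36.3 with IAA and 83.02 and 51.2 with MT (0.90 ± 0.21, adjusted p = 0.053). Its MT libraries were above all others and 1.62-fold apart. WRKY54 (AT2G40750), which acts with WRKY70 against leaf senescence, had 2.21 to 3.47 CPM over all libraries and 0.11 ± 0.22 with MT (adjusted p = 0.803). The other 3 near the threshold were of group IId, WRKY15 (0.29 ± 0.07), WRKY39 (AT3G04670, -0.43 ± 0.10) and WRKY21 (AT2G30590, -0.46 ± 0.11).

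The counts by structural group are small and stand beside 7.65% of all genes called with MT. Group III had 2 of 7 tested members called, both higher, with a median log2 fold change of 0.90. Group I had 2 of 10, both higher, and a median of -0.12. Group IIa had 1 of 3, higher. Group IId had 1 higher and 1 lower of 7, and group IIc had 1 lower of 13, a share near that of all genes. Groups IIb (6 members) and IIe (7) had 0 called in edgeR's test, with 1 and 2 at an unadjusted p under 0.05. For MT against control DESeq2 called 1 member in those groups, WRKY14 (AT1G30650) of group IIe. The subgroups are the textbook classification.

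**Figure D4:**
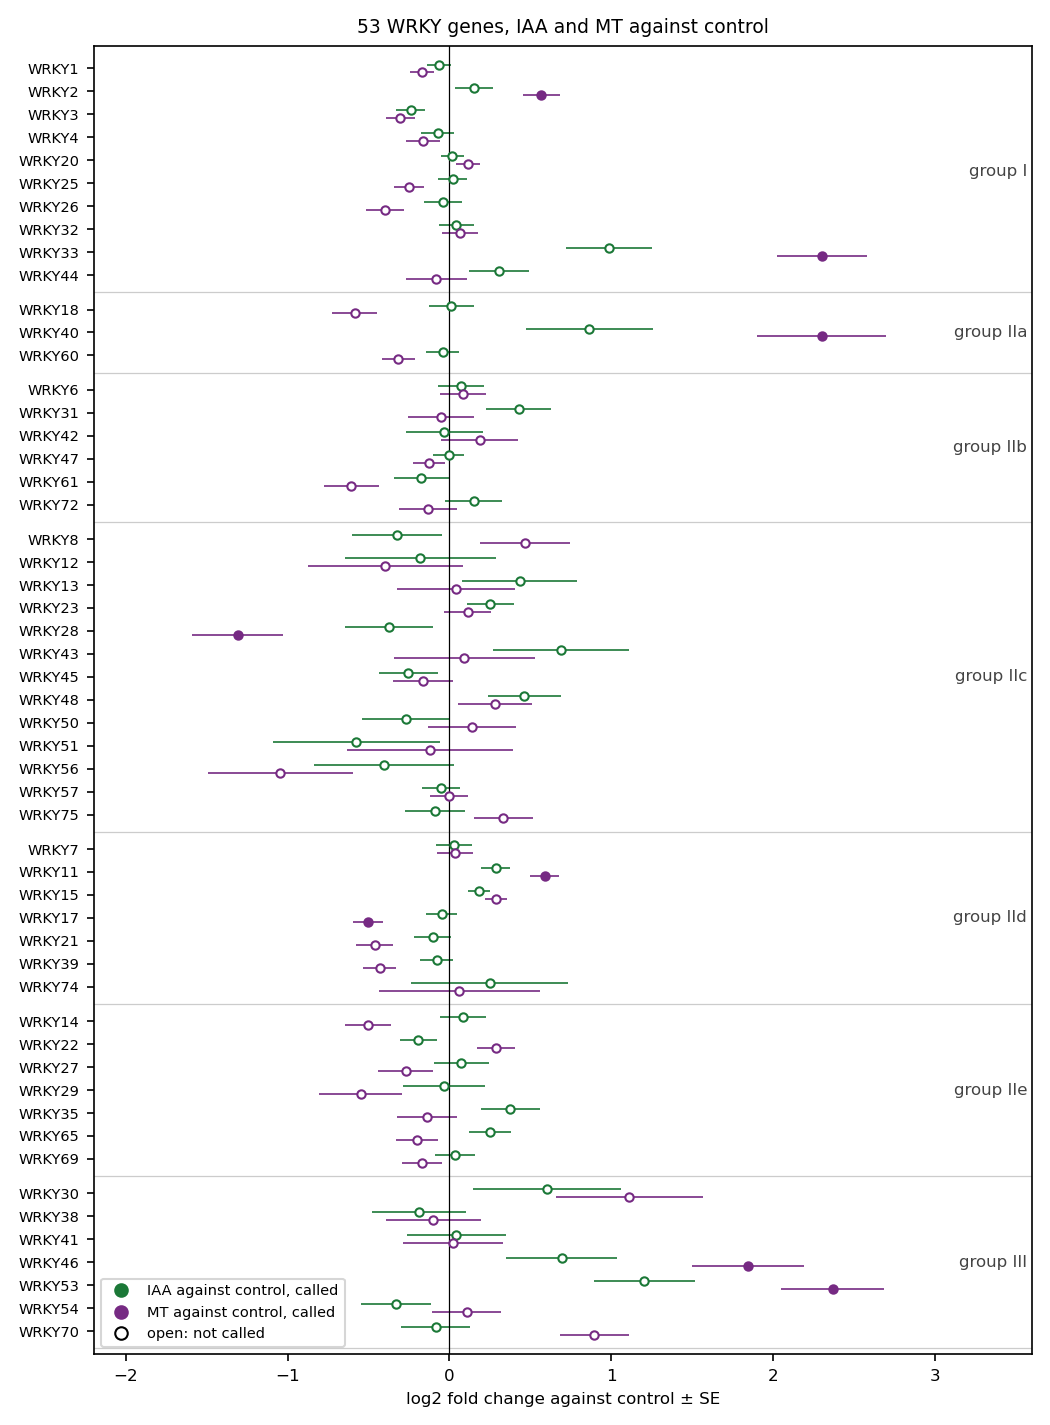
log2 fold change ± SE (x axis) of the 53 tested WRKY genes, ordered by structural group, for IAA against control (green) and MT against control (purple); filled points are the genes called. The MT points of WRKY33, WRKY40, WRKY46 and WRKY53 lie between 1.84 and 2.37, and no IAA point is filled. Both comparisons use the same control libraries.

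With IAA 0 of 53 members were called in edgeR's quasi-likelihood test, beside 0.332% of all genes (0.272% higher and 0.0609% lower). An unadjusted p under 0.05 was reached by 5 members (9.43%) beside 14.3% of all genes. DESeq2 called 1, WRKY53, beside 3.66% of all genes. The IAA and control libraries did not overlap for 24 members, beside 48.4% of all genes. The 5 members under an unadjusted p of 0.05 were WRKY53 with 1.20 ± 0.31 (adjusted p = 0.202 in edgeR's test), WRKY33 with 0.98 ± 0.27 (0.214), WRKY11 with 0.29 ± 0.09 (0.252), WRKY15 with 0.18 ± 0.07 (0.302) and WRKY3 (AT2G03340) with -0.24 ± 0.09 (0.302). WRKY40 and WRKY46, which rose with MT, were not among them, at 0.86 ± 0.39 (0.384) and 0.69 ± 0.34 (0.419). The WRKY33 call was made in 3 alternatives, with only the IAA and control libraries (adjusted p = 0.0233), without MT replicate 1 (0.0231) and without MT replicate 2 (0.0229). In these the MT group has no replicate or is absent, and it adds nothing to the estimate of spread within groups. The other members lay between -0.58 for WRKY51 and 0.69 for WRKY43.

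Set directly against IAA, MT gave 0 of 53 members called in edgeR's test, beside 0.173% of all genes (0.089% higher and 0.0843% lower), so the difference between the compounds is not shown for any single member by that test. An unadjusted p under 0.05 was reached by 22 members (41.5%) beside 17.4% of all genes, and DESeq2 called 9 beside 7.12% of all genes. Those 9 were WRKY14, WRKY17, WRKY18, WRKY22, WRKY33, WRKY46, WRKY53, WRKY65 and WRKY70. The groups did not overlap for 38 members, beside 50.4% of all genes. The smallest p was that of WRKY33 (1.32 ± 0.27, adjusted p = 0.106), followed by WRKY17 (-0.45 ± 0.09, 0.112) and WRKY70 (0.98 ± 0.21, 0.117). WRKY40 had 1.44 ± 0.38 (0.153), WRKY53 1.16 ± 0.30 (0.145) and WRKY46 1.15 ± 0.33 (0.17). Without MT replicate 2, which leaves a single MT library, WRKY33, WRKY40 and WRKY70 passed as higher and WRKY18 as lower with MT. Calls over all genes also rose in that fit. IAA and MT were given at different doses.

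Members tied to phosphate nutrition and to auxin gave no call in edgeR's test. WRKY75 (AT5G13080), which promotes phosphate starvation responses, had 4.60 to 7.16 CPM over all libraries, with -0.09 ± 0.19 for IAA and 0.33 ± 0.19 for MT. WRKY45 (AT3G01970), an activator of the phosphate transporter gene PHT1;1, had 20.1 to 28.9 CPM (-0.25 ± 0.18 and -0.16 ± 0.18). WRKY6 (AT1G62300) and WRKY42 (AT4G04450), which repress the phosphate exporter gene PHO1, had 0.07 ± 0.14 and -0.03 ± 0.24 with IAA, and 0.08 ± 0.14 and 0.19 ± 0.24 with MT. Adjusted p of these 4 genes ran from 0.315 to 0.965. The auxin-inducible WRKY23 (AT2G47260) had 7.96 and 7.71 CPM in the control and 9.29 and 9.37 with IAA (0.25 ± 0.14, adjusted p = 0.485), and 7.75 and 9.20 with MT (0.11 ± 0.15, 0.678). The IAA libraries of WRKY23 were both above the control, by less than the test could call.

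WRKY22 (AT4G01250) and WRKY29 (AT4G23550) act below the flagellin receptor cascade. They went apart without passing against control, with 0.29 ± 0.12 (adjusted p = 0.184) and -0.55 ± 0.26 (0.237) under MT. WRKY30, an early stress-responsive group III gene, had 0.391 and 0.455 CPM in the control and 1.16 and 0.684 with MT (1.11 ± 0.45, adjusted p = 0.188), on 14 and 17 counts in the control libraries. WRKY56 (AT1G64000) had the lowest value among those not called with MT (-1.05 ± 0.45, adjusted p = 0.205). Of the heat-related group I genes, WRKY25 (AT2G30250) had -0.25 ± 0.09 and WRKY26 (AT5G07100) -0.40 ± 0.12 (adjusted p = 0.15 and 0.0917). WRKY44 (AT2G37260), a trichome and seed coat factor, had -0.08 ± 0.19, WRKY57 (AT1G69310), of drought tolerance, 0.00 ± 0.12 and WRKY7 (AT4G24240), a calmodulin-binding relative of WRKY11, 0.04 ± 0.11. WRKY8 (AT5G46350), of salt stress, had 0.47 ± 0.28. WRKY12 (AT2G44745) and WRKY13 (AT4G39410), of stem secondary walls, and WRKY43 (AT2G46130) had -0.40 ± 0.48, 0.04 ± 0.36 and 0.09 ± 0.43, each on under 1.5 CPM in every library. The members whose MT values are not given above were WRKY1, WRKY3, WRKY4, WRKY20, WRKY27, WRKY31, WRKY32, WRKY35, WRKY38, WRKY41, WRKY47, WRKY48, WRKY50, WRKY51, WRKY61, WRKY65, WRKY69 and WRKY72. None of these 18 passed with MT against control in edgeR's test or in DESeq2, and WRKY3 and WRKY61 had an unadjusted p under 0.05. Their log2 fold changes ran from -0.61 for WRKY61 to 0.28 for WRKY48.

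A list of 37 genes around the WRKY factors was read in the same fits, and 36 of them were tested. With MT 8 rose, 1 fell and 27 did not pass, beside 7.65% of all genes called. With IAA 1 rose and 0 fell, beside 0.332% of all genes, while DESeq2 called 6, all higher, beside 3.66%. The list's median log2 fold change with MT was 0.30, beside 0.00 over all genes. Of 6 receptor and membrane genes, the flagellin receptor FLS2 (AT5G46330) had 21.2 and 21.1 CPM in the control, 29.9 and 26.8 with IAA, and 39.3 in both MT libraries (0.90 ± 0.09, adjusted p = 0.0046). The oxidase RBOHD (AT5G47910) rose under both compounds, from 98.1 and 99.6 CPM to 175 and 171 with IAA (0.81 ± 0.08, adjusted p = 0.0217) and 265 and 250 with MT (1.38 ± 0.08, 0.00165). FLS2 and RBOHD thus had no overlap between any of the 3 groups. The other 4 did not pass with MT, at 0.15 ± 0.21 for EFR, -0.28 ± 0.08 for CERK1 (adjusted p = 0.0751), -0.06 ± 0.07 for BAK1 and -0.14 ± 0.11 for BIK1. The MT libraries of the last 3 lay below the control libraries. With IAA the RBOHD call was lost without any 1 of the 4 control and IAA libraries (adjusted p up to 0.108).

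Of 10 MAP kinase genes 1 was called with MT, a share near the 7.65% of all genes. MPK3 (AT3G45640), a kinase that acts on WRKY33, had 94.4 and 80.7 CPM in the control, 141 and 116 with IAA, and 258 and 200 with MT (1.39 ± 0.16, adjusted p = 0.00662). Its functional partner MPK6 (AT2G43790) had 55.4 to 57.5 CPM in all libraries (-0.03 ± 0.07, adjusted p = 0.842). Of the genes of 4 VQ proteins, which bind WRKY domains, 2 were called with MT, beside 7.65% of all genes. The WRKY33 partners SIB1 (AT3G56710, 1.22 ± 0.19, adjusted p = 0.0156) and SIB2 (AT2G41180, 1.02 ± 0.19, 0.0271) rose. MKS1 (AT3G18690), which also binds WRKY33, had -0.04 ± 0.14 (0.896), and JAV1 (AT3G22160) did not pass either. Without control replicate 2 or MT replicate 1 the SIB1 call was lost (up to 0.0755), and that of SIB2 was lost also without control replicate 1 (up to 0.117).

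Of 6 salicylate regulators CBP60G (AT5G26920) rose (1.59 ± 0.20, adjusted p = 0.0081), and its call was lost without control replicate 1 (0.0516). That was 1 of 6 called, beside 7.65% of all genes, while NPR1, EDS1, PAD4, SARD1 and ICS1 did not pass. Of the 6 log2 fold changes 5 were positive, with a median of 0.47. An unadjusted p under 0.05 was reached by 4, beside 25.2% of all genes. Of 10 tested targets 3 were called, beside 7.65%, while PAD3, CYP71A12, CYP71A13, PR1, ACS2, PHO1 and PHT1;1 did not pass. Among the targets the receptor kinase gene FRK1 (AT2G19190) rose, from 1.59 and 1.26 CPM to 3.90 and 3.55 (1.38 ± 0.23, adjusted p = 0.0185). So did the ethylene synthesis gene ACS6 (AT4G11280), from 15.2 and 15.7 to 61.01 and 36.1 CPM (1.65 ± 0.23, 0.0107). NHL10 (AT2G35980) fell (-0.88 ± 0.18, 0.0358), a call lost when any 1 of the 6 libraries was left out (up to 0.144) and with only the MT and control libraries (0.0649). FRK1 lost its call without either control library or MT replicate 1 (up to 0.083), and ACS6 without either control library (up to 0.0635). The camalexin gene PAD3 (AT3G26830), a WRKY33 target, had 16.6 and 10.7 CPM in the control and 17.9 and 23.6 with MT (0.61 ± 0.31, adjusted p = 0.276). The salicylate marker PR1 (AT2G14610) ranged from 32.95 to 139 CPM, with overlapping groups. The senescence marker SAG12 (AT5G45890), a WRKY53 target, had at most 0.196 CPM, was at 0 in all IAA and MT libraries and was not tested.

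**Figure D5:**
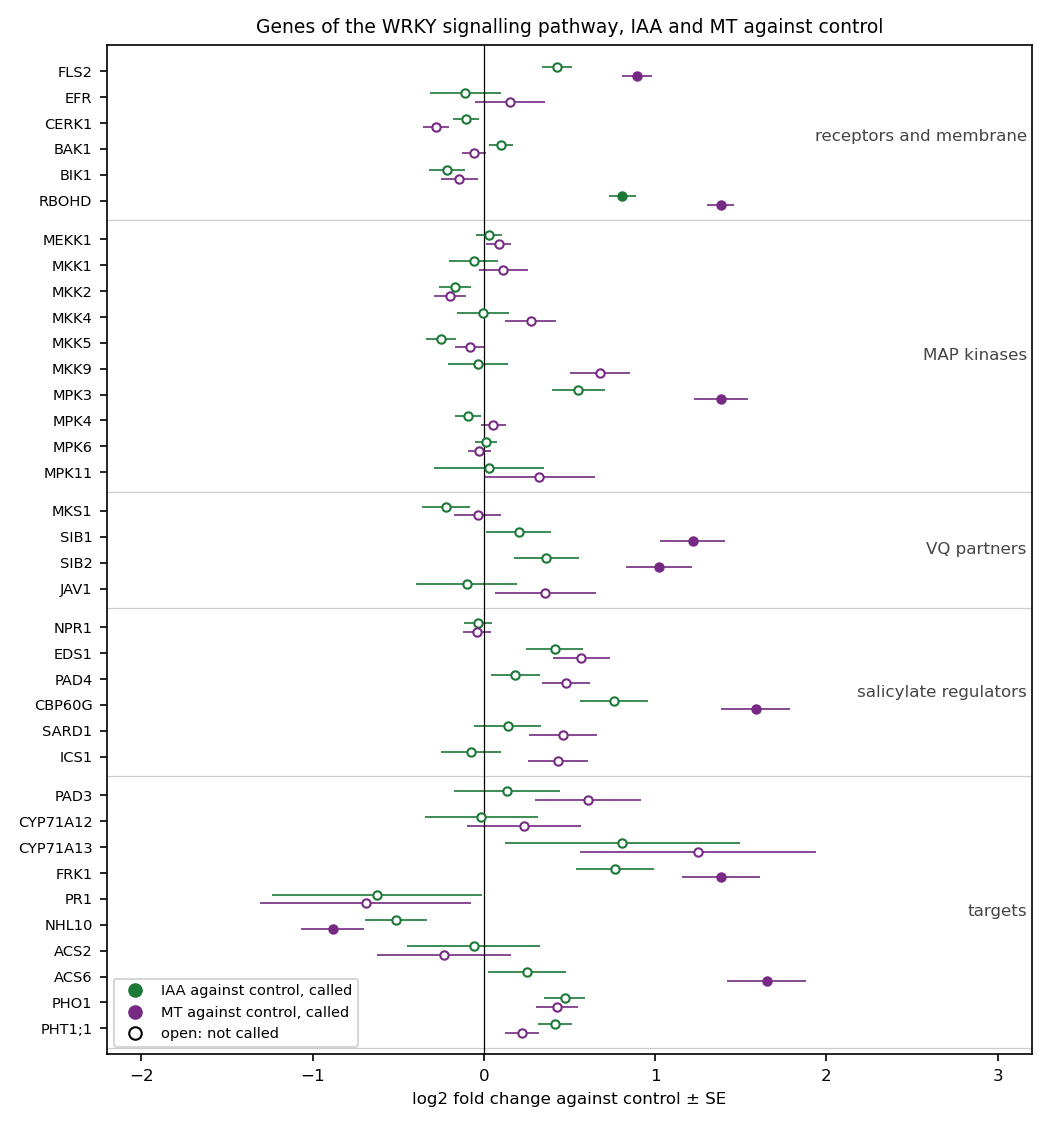
log2 fold change ± SE (x axis) of 36 genes around the WRKY factors for IAA against control (green) and MT against control (purple), grouped by role; filled points passed an adjusted p of 0.05. With MT 8 points to the right of 0 and 1 to the left are filled, and with IAA only RBOHD is.

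A list of 8 genes that respond to touch and wounding was read beside the WRKY genes. With MT 4 of the 8 rose, 0 fell and 4 did not pass, beside 3.99% of all genes higher and 3.65% lower, and for IAA none of the 8 was called by edgeR, beside 0.332% of all genes. Before adjustment 4 lay under 0.05, beside 14.3% of all genes, and DESeq2 called ZAT10, SZF1 and CML38, beside 3.66%. Their summed level was 649.6 to 650.1 CPM in the control, 753 to 911 with IAA and 942 to 981 with MT. ZAT10 (AT1G27730) had 6.99 and 10.3 CPM in the control and 48.8 and 33.7 with MT (2.25 ± 0.26, adjusted p = 0.00664). SZF1 (AT3G55980) had 2.11 ± 0.19 (0.00404), TCH2 (AT5G37770) 0.80 ± 0.08 (0.0048) and CML38 (AT1G76650) 1.70 ± 0.39 (0.0464), while TCH3 (AT2G41100) had 0.00 ± 0.11, TCH4 (AT5G57560) 0.22 ± 0.25, ZAT12 (AT5G59820) 0.77 ± 0.22 and RRTF1 (AT4G34410) 2.00 ± 0.94. The CML38 call was lost without either control library, either IAA library or MT replicate 2 (up to 0.176). Of the 3 senescence markers, SEN4 (AT4G30270) fell with MT, from 552 and 544 to 144 and 189 CPM (-1.72 ± 0.18, adjusted p = 0.0048), while the senescence activator WRKY53 rose. SAG13 (AT2G29350) had 0.21 ± 0.53 with MT. The part of these markers in the WRKY result was not tested.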

How the data were processed

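RNA of 6 Arabidopsis seedling libraries was sequenced (Illumina, per the labels' protocols). The authors deposited 1 table of raw counts, with a row for each gene. Per the submitters' processing notes HTSeq 0.6.1, TopHat2 2.0.12, DESeq 1.18.0 and Bowtie2 2.2.3 were used by the authors. Their settings, build and use of strand: not given in the sources used here. Genes that overlap may therefore share reads. Groups and replicate numbers came from the sample labels.

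The tests used edgeR 4.0.16 in R 4.3.3. Genes passed filterByExpr by group (21355 kept), TMM factors scaled the libraries, and 1 quasi-likelihood model of group was fitted to the 6 libraries (3 residual degrees of freedom). Benjamini-Hochberg adjustment covered all 21355 genes within each comparison, and the threshold was 0.05. This test gave every p in the text unless another tool is named. It was also run on simulated counts with the same spread for every gene, which cannot vouch for single calls here. CPM use TMM-scaled totals. The rule for members used plain CPM. A gene's value printed with no unit is its log2 fold change ± SE. Alternatives were other scaling factors and filters, robust empirical Bayes, fits of 2 groups, a replicate block, leaving out each library and DESeq2 1.42.0.

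Overlaps, exon lengths and upstream windows came from the RefSeq annotation of TAIR10.1, in which all 54 members matched by locus tag. Gene symbols were set with the gene lists and not read from that annotation. The members, lists and alternatives were chosen with earlier results of these data known. Named were all members called, the 3 with the smallest p of each comparison, and 30 members fixed by known role. Members near the threshold, WRKY3, WRKY14 and the other genes were named after their values were seen.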

Additional observations from a re-analysis of the deposited data

How the results depend on the processing

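For MT against control the count of 8 members called was 8 with relative log expression factors, upper quartile factors, the filter at a mean of 0.5 CPM and the replicate block, 11 with no filter and with robust empirical Bayes, and 7 with only the 2 groups compared. DESeq2 gave 14. With 1 library left out it ran from 2 to 8. For IAA against control the count of 0 became 1 with only the 2 groups compared and 1 with DESeq2, and ran from 0 to 1 with 1 library left out. For MT against IAA it became 9 with DESeq2 and ran from 0 to 4 with 1 library left out. With the replicate block, counts over the tested members were 0, 8 and 0 for IAA against control, MT against control and MT against IAA. The block ended the calls of NHL10 with MT (adjusted p = 0.0583) and LHCB3 with IAA (0.085) and added CML38 with IAA (0.0487). Same-numbered libraries deviated together with r from 0.00738 to 0.0790 over 21355 genes, so the numbers were not taken as pairs. Over all genes the 71, 1633 and 37 calls were 48, 1325 and 12 with the replicate block, 768, 2905 and 1225 with DESeq2, 99, 1662 and 76 with no filter, 130, 1977 and 142 with robust empirical Bayes, and 125, 1119 and 6 with only the 2 groups compared. With 1 library left out they ran from 15 to 113, from 493 to 1300 and from 6 to 340. No called value changed sign in any of the 14 alternatives. This was read over 2016 cases of gene, comparison and alternative, called and uncalled together, of which 49 were sign changes of uncalled values. The cases covered the 30 members fixed by role and genes of the other lists that were called or had a small p. WRKY3, WRKY14, WRKY15, WRKY21 and WRKY39 were not among them. With 1 library left out, the lone library of its group is assumed to vary like the others. The low counts of WRKY30, WRKY55 and WRKY74 limit what could be called for them.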
